A study of Homo sapiens with 21 samples.

Results

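The 52 genes described here build the route that a secreted or membrane protein takes into the endoplasmic reticulum (ER) and from there to the Golgi apparatus and back. They were taken by symbol from the 60671 genes of the count table: the 6 proteins of the signal recognition particle, both subunits of its receptor, 6 genes of the SEC61 channel and its partners, 4 of the TRAP complex, TRAM1 and SERP1, 5 of the signal peptidase, 10 of the COPII coat, 3 KDEL receptors, 8 cargo receptors and 6 of the COPI coat. All 52 passed the filter on low counts. Polyadenylated RNA of OCI-AML3 cells (a leukaemic cell line of the myeloid lineage) and HEK293T cells (a line derived from embryonic kidney) was sequenced, in 7 groups of 3 libraries. The OCI-AML3 groups were an untreated one at 0 h, the solvent DMSO for 4 h or for 24 h, and tunicamycin at 1 μg/mL for 4 h or for 24 h. The HEK293T groups were DMSO and tunicamycin at 1 μg/mL, both for 24 h; a 4 h time point of that line was not analysed here. Each line stands for 1 cell type grown in culture. The labels give replicate numbers but do not say whether replicates were separate cultures, so p-values measure the spread between these libraries, which may be technical.

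The signal recognition particle binds the signal sequence of a nascent protein on the ribosome and docks at its receptor on the ER. The SEC61 channel then lets the chain cross or enter the membrane, helped by TRAM1 and TRAP, and the signal peptidase cuts the signal sequence off. COPII coats bud vesicles that carry cargo to the Golgi, and COPI coats bring escaped ER residents back, many of them held by KDEL receptors. Tunicamycin blocks N-linked glycosylation, so unfolded glycoproteins build up in the ER and the unfolded protein response (UPR) starts. The UPR transcription factors XBP1 and ATF6 are known to raise genes of this route, through promoter elements called UPRE and ERSE.

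Total counts ran from 13838480 to 19961819 per library (median 16657733). Levels are given as CPM, a gene's counts relative to the TMM-scaled total of its library. Tunicamycin was visible in every treated library: HSPA5, the main ER chaperone, was at 734, 686 and 691 CPM with DMSO and 7056, 6801 and 6749 CPM with tunicamycin in OCI-AML3 cells at 4 h. The 24 h libraries of that line were at 436, 419 and 424 CPM with DMSO and 4994, 5011 and 4712 CPM with tunicamycin, and those of HEK293T at 465, 477 and 483 CPM with DMSO and 3114, 3044 and 3113 CPM with tunicamycin. DDIT3, a transcription factor of the stress response, was at 10.4, 11 and 11.6 CPM with DMSO and 436, 477 and 448 CPM with tunicamycin in OCI-AML3 at 4 h and at 5.9, 7.98 and 5.81 CPM with DMSO and 84.9, 84.1 and 84.5 CPM with tunicamycin in HEK293T. Replicate 3 of OCI-AML3 with tunicamycin at 24 h stood apart from the other two: its TMM factor was 1 against 0.931 and 0.923, and COPE was at 201, 217 and 145 CPM, SSR4 at 231, 272 and 153 CPM and LMAN2 at 300.3, 293 and 223 CPM in replicates 1, 2 and 3. Other members were higher there, with LMAN1 at 187, 174 and 230.1 CPM, SEC63 at 167, 165 and 201 CPM and TMED7 at 105, 106 and 134 CPM. Without it 29 of the 52 genes rose and 2 fell at 24 h, in place of 27 and 7. Replicate 1 of OCI-AML3 with DMSO at 4 h also stood apart, with a TMM factor of 0.946 against 0.995 and 0.995. There SSR2 was at 379, 293 and 291 CPM, SRP14 at 319, 246 and 240.5 CPM and COPE at 249, 192 and 198 CPM in replicates 1, 2 and 3. LMAN1 was lower in replicate 1, at 107, 135 and 142 CPM. Without that library 33 of the 52 genes rose at 4 h, in place of 32. The leukocyte markers PTPRC, CD33, SPI1, ITGB2 and LYZ marked the OCI-AML3 libraries and were near 0 in HEK293T, whereas CDH2 and KRT18 were higher in HEK293T. KRT8, PAX2, NEFL and NEFM were also listed as HEK293T markers, and their levels are not given here. MPO, a granule enzyme of myeloid cells, averaged only 1.4 ± 0.235 CPM (SD, n = 3) in OCI-AML3 with DMSO at 4 h.

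The promoters of these genes were searched for the letters of 5 stress elements, on both strands, from 250 bases before to 50 bases after the RefSeq transcript start (GRCh38.p14). A window was at hand for 46 of the 52 genes, and SRPRA, SEC24D, KDELR2, TMED9, SPCS1 and TRAM1 had none. The UPRE core TGACGTGG stood in the window of 10 of the 46 genes: SRP19, SEC62, SSR3, SSR4, SEC23A, SEC24A, KDELR3, COPA, COPB1 and COPB2. Of all 27305 gene symbols with a window, 0.927% held it, and among the 10302 that were also tested here 1.16% did. The ERSE, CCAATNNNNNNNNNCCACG, was found before SERP1 alone, against 0.0916% of all symbols. The ATF4-type element TGATGNAAT was found before SRPRB alone (1.22% of symbols). ERSE-II, ATTGGNCCACG, and the CRE, TGACGTCA (0.0696% and 2.25% of symbols), matched none of the 46. UPRE and CRE share their first letters, and CCACG read on the other strand ends the UPRE, but no position counted for 2 of the elements in these genes. A match is a match of letters and no proof of binding. The windows below show the matches of 4 genes that rose in all 3 tunicamycin comparisons, of SEC23A, which was called in none, and the ERSE of SERP1. Each is printed 5′ to 3′ on the strand that carries the element, with the element's fixed letters in capitals.
SEC62 (chr3:169966779-169966808, minus strand): ccggttccctcTGACGTGGagcgaggaggg
SSR3 (chr3:156554148-156554177, plus strand): agtttccttgcTGACGTGGctgttatcaga
COPA (chr1:160343227-160343256, minus strand): gagagggtcgcTGACGTGGaggcgtccgaa
COPB1 (chr11:14499841-14499870, plus strand): gagtccttggcTGACGTGGaagggggtggg
SEC23A (chr14:39103221-39103250, minus strand): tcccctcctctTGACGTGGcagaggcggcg
SERP1 (chr3:150546704-150546733, plus strand): gaaacaCCAATtcgctgtctCCACGcatga

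**Figure D1:**
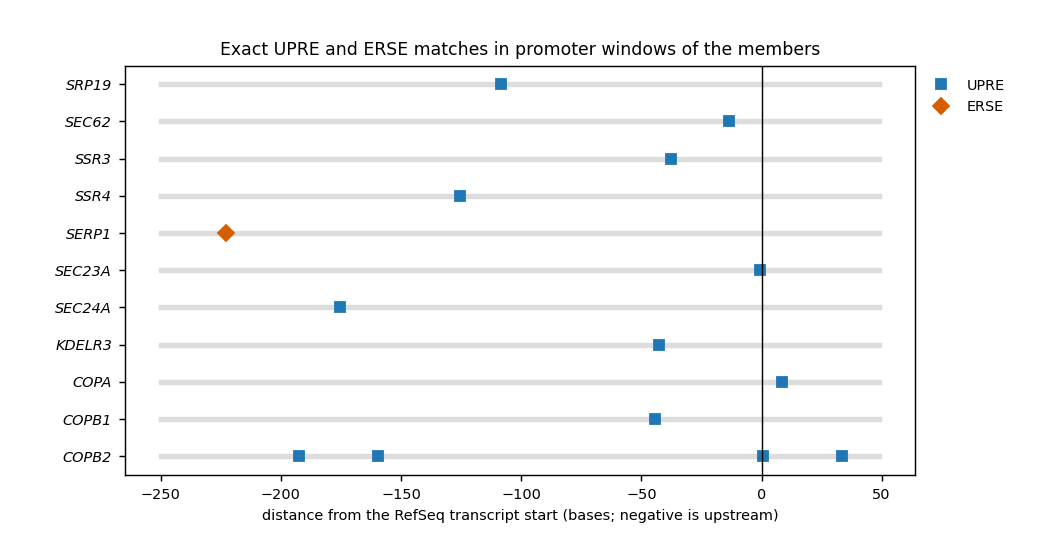
Positions of the UPRE (squares) and ERSE (diamond) letters in the promoter windows of the genes that hold them, in bases from the RefSeq transcript start, with the window as a grey bar. COPB2 has 2 annotated starts, so that each of its 2 UPRE matches is drawn once for each start.

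The genes with the UPRE letters had a higher median than the others in 1 comparison and a lower one in 2. Their median log2 fold change with tunicamycin was 0.30 in OCI-AML3 at 4 h, 0.29 at 24 h and 0.41 in HEK293T, against 0.31, 0.15 and 0.51 for the 36 genes without them. In the order of those comparisons 6, 7 and 7 of the 10 were called higher, and 21, 17 and 26 of the 36. Called lower were 0, 1 and 0 of the 10, and 2, 5 and 0 of the 36. Over all genes 18.5%, 23.5% and 12.6% were called higher and 18.9%, 27.7% and 13.1% lower. These are descriptions, and the difference between genes with and without the letters was not tested.

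Tunicamycin was compared with DMSO of the same line and time, and more of the 52 genes rose than fell in each comparison. A gene was called higher or lower at an adjusted p of at most 0.05 in edgeR's quasi-likelihood test over 14012 genes. In OCI-AML3 at 4 h 32 of the 52 rose and 2 fell, where 18.5% and 18.9% of all genes tested did. At 24 h 27 rose and 7 fell, against 23.5% and 27.7% of all genes, and the alternatives other than leaving out a library gave 23 to 29 rises. In HEK293T at 24 h 38 rose and 0 fell, against 12.6% and 13.1%. At an unadjusted p under 0.05, 1 gene was lower in HEK293T, and limma voom and DESeq2 also called 0 lower. Other settings did call falls there: 1 with library sizes only (SRP14) and 3 with the compared groups only (SRP9, SRP14 and SAR1A). The replicate block called 4 lower (SRP9, SRP14, SEC24B and SAR1A), as did the removal of GC and length trends. The median log2 fold change of the 52 was 0.32, 0.20 and 0.50, beside -0.02, -0.01 and -0.01 over all genes. Most of the falls depended on single libraries, other than those of SEC13 and SRP68 at 24 h, which kept their call under every alternative run: at 4 h the 2 became 0 without DMSO replicate 1 or tunicamycin replicate 2 and 1 without DMSO replicate 3 or tunicamycin replicate 1 or 3, and at 24 h the 7 became 3 without DMSO replicate 3, 4 without tunicamycin replicate 1 and 2 without tunicamycin replicate 3. The compared groups only gave 0 falls at 4 h and 4 at 24 h, and a replicate block 0 and 3. With GC and length trends removed 3 and 10 fell. In bulk RNA, a change of RNA per cell and a change in the mix of cells cannot be told apart.

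**Figure D2:**
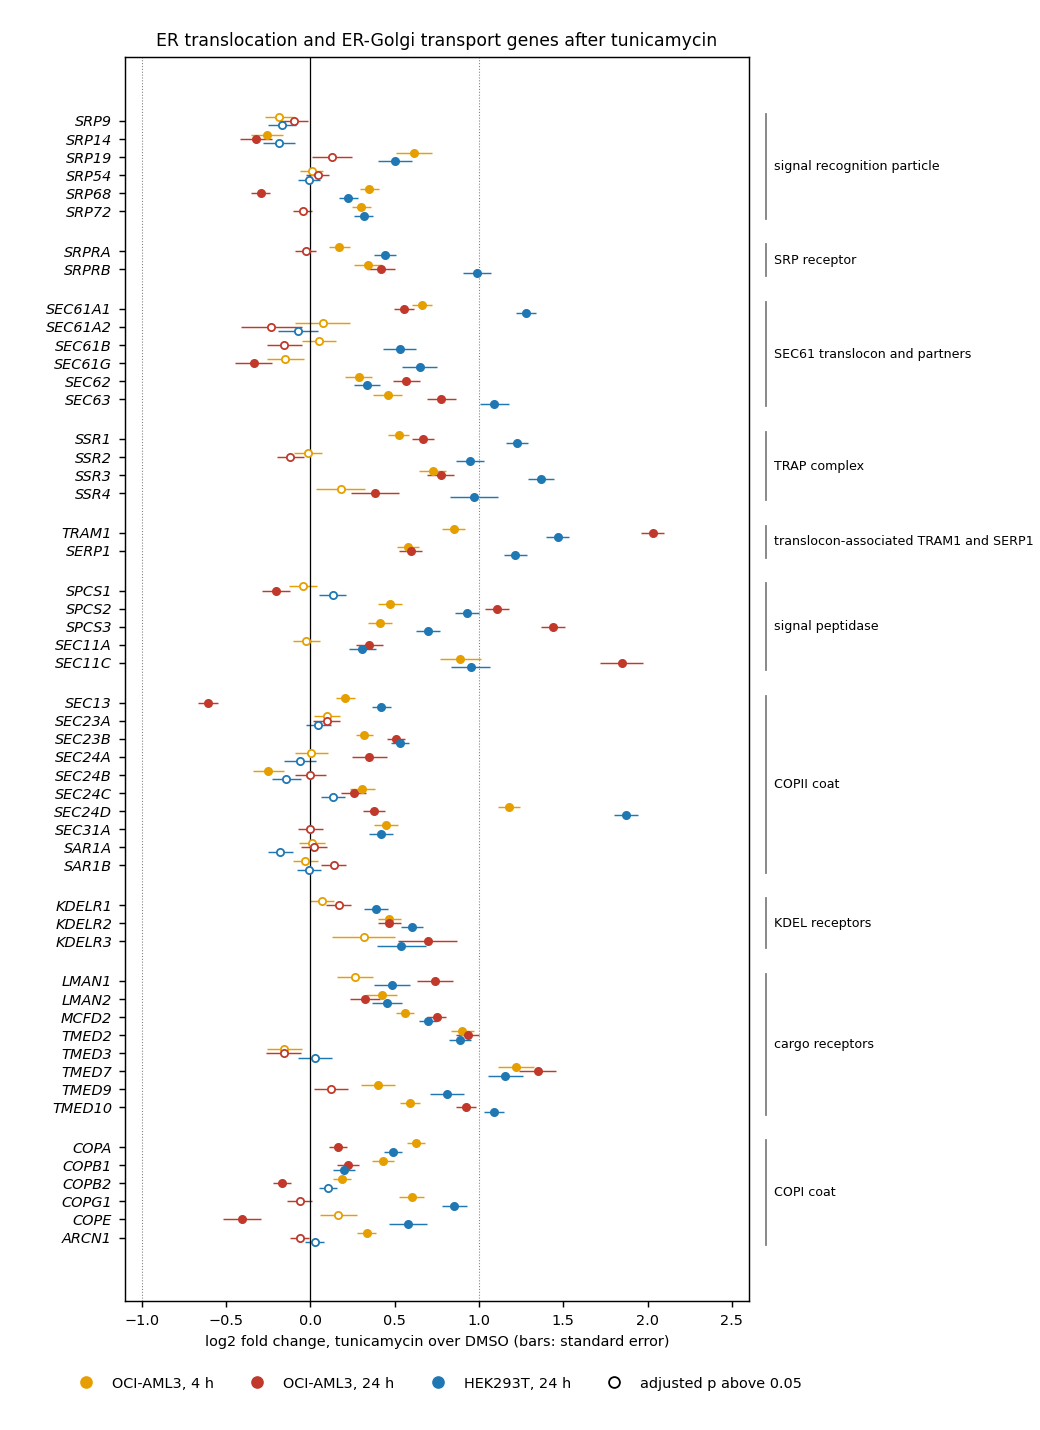
Log2 fold change of each of the 52 genes, tunicamycin over DMSO, with its standard error as a bar, in OCI-AML3 at 4 h and 24 h and in HEK293T at 24 h. Genes are ordered by role, open circles mark an adjusted p above 0.05, and dotted lines mark a change of 1 in either direction: values right of 1 are found from SEC61 to the cargo receptors and none lies left of -1.

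Changes beyond 1 on the log2 scale were fewer, and were rises. They numbered 2 in OCI-AML3 at 4 h (SEC24D and TMED7), 5 at 24 h (TRAM1, SPCS2, SPCS3, SEC11C and TMED7) and 9 in HEK293T (SEC61A1, SEC63, SSR1, SSR3, TRAM1, SERP1, SEC24D, TMED7 and TMED10). Over all genes 3.45%, 4.05% and 1.58% rose this far. Falls beyond 1 took 1.47%, 2.26% and 0.55% of all genes and none of the 52, by edgeR, limma voom or DESeq2, and the lowest value of the 52 at any adjusted p was -0.60, that of SEC13 in OCI-AML3 at 24 h. A set of 21 genes was called higher in all 3 comparisons, as were 4.45% of all genes. Of the others 13 rose in 2 comparisons and 8 in 1, and SRP9, SRP54, SEC61A2, SEC23A, SAR1A, SAR1B and TMED3 were called in none. SRP68, SEC61G, SEC13, COPB2 and COPE rose in 1 or more comparisons and fell in another.

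**Figure D3:**
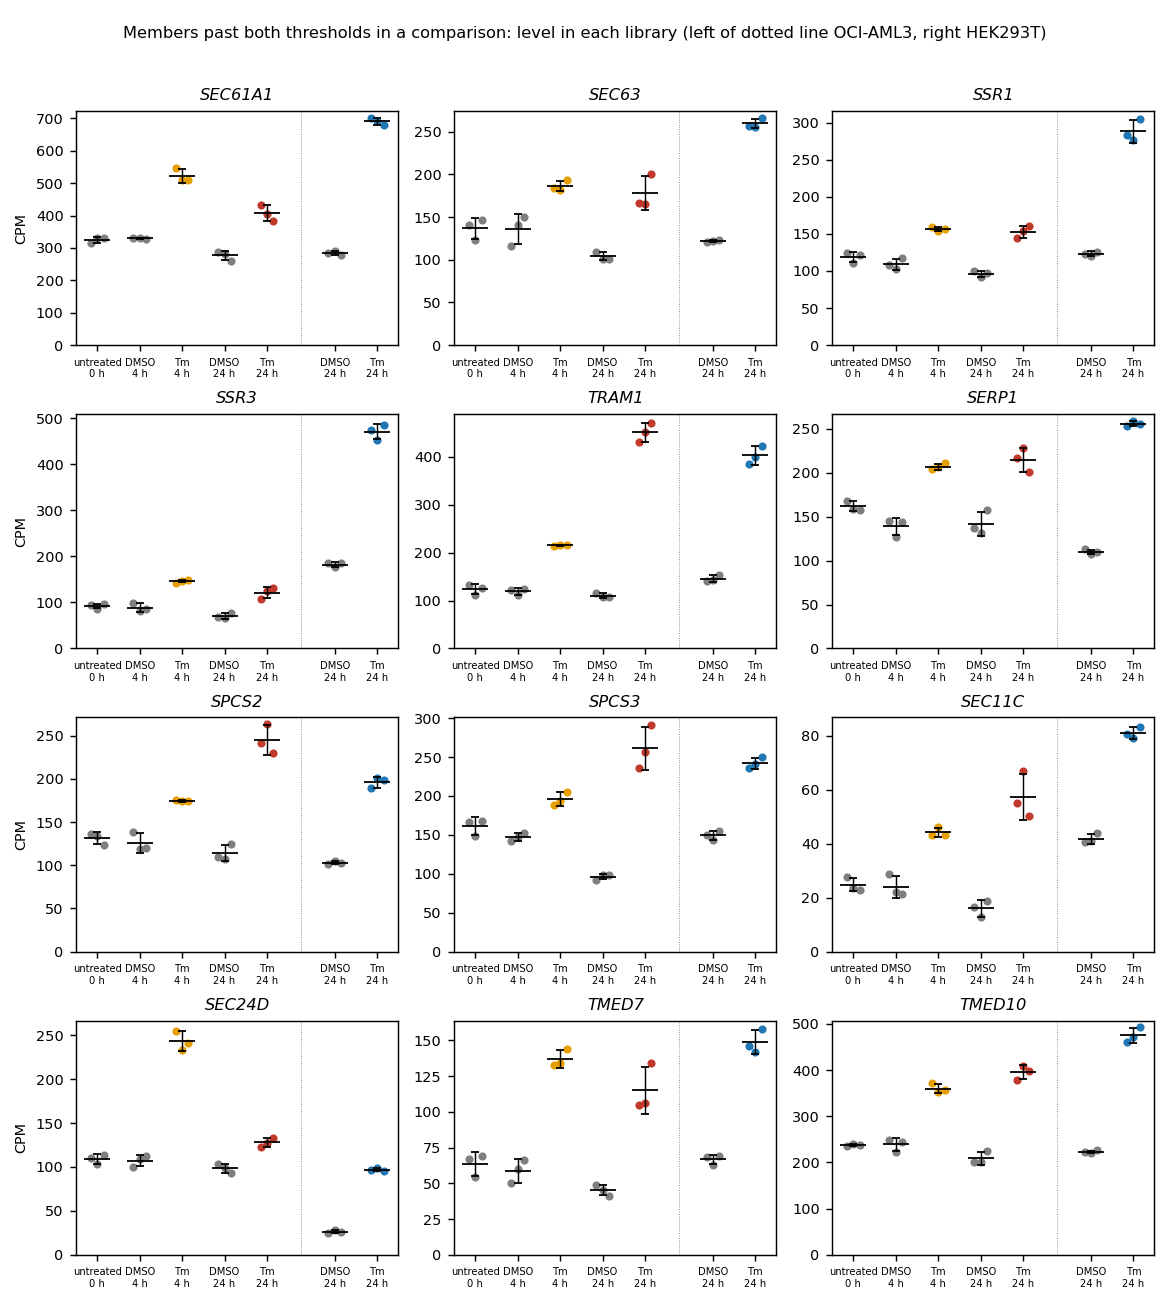
CPM in each library of the 12 genes past an adjusted p of 0.05 and a log2 fold change of 1 in any tunicamycin comparison, with the mean (line) and SD (bar) of 3 libraries per group, OCI-AML3 left and HEK293T right of the dotted line. Tunicamycin libraries are coloured and the untreated and DMSO libraries grey: TRAM1, SPCS2, SPCS3 and SEC11C are highest in OCI-AML3 or HEK293T at 24 h, and SEC24D in OCI-AML3 at 4 h.

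TRAM1 and SERP1, which act beside the channel, were both past a change of 1 in HEK293T. TRAM1, a membrane protein that lies beside the channel and contacts nascent chains, was at 132, 112 and 127 CPM in untreated OCI-AML3 cells. At 4 h it was at 122, 111 and 124 CPM with DMSO and 213, 216 and 215 CPM with tunicamycin (log2 fold change 0.85, SE 0.067, adjusted p = 8.5e-10). At 24 h it was at 116, 107 and 108 CPM with DMSO and 432, 451 and 471 CPM with tunicamycin (log2 fold change 2.03, SE 0.069, adjusted p = 3.0e-16), a 4.08-fold rise and the largest of the 52 in that comparison. The HEK293T libraries were at 139.9, 143 and 154 CPM with DMSO and 385, 399 and 423 CPM with tunicamycin (log2 fold change 1.47, SE 0.067, adjusted p = 7.8e-14). DMSO and tunicamycin libraries did not overlap in any of the comparisons. SERP1, which guards membrane proteins at the translocon during stress, stood at 113, 108 and 109.8 CPM with DMSO and 253, 259 and 255 CPM with tunicamycin (log2 fold change 1.22, SE 0.068, adjusted p = 3.2e-12) in HEK293T. Its groups did not overlap there. In OCI-AML3 it was at 145, 127 and 144 CPM with DMSO and 204, 207 and 211 CPM with tunicamycin (log2 fold change 0.58, SE 0.068, adjusted p = 4.4e-07) at 4 h. SERP1 at 24 h was at 137, 132 and 158 CPM with DMSO and 217, 228 and 201 CPM with tunicamycin (log2 fold change 0.60, SE 0.068, adjusted p = 2.4e-07).

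The channel itself showed unequal changes of its 3 kinds of subunit. SEC61A1, the pore-forming alpha subunit, rose in every comparison, SEC61B and SEC61G, the small beta and gamma subunits, were called higher in HEK293T alone, and SEC61G fell in OCI-AML3 at 24 h. SEC61A1 was at 330.3, 331 and 329 CPM with DMSO and 548, 510.1 and 509 CPM with tunicamycin (log2 fold change 0.66, SE 0.058, adjusted p = 4.4e-09) in OCI-AML3 at 4 h. At 24 h it was at 289, 282 and 260.0 CPM with DMSO and 433, 405 and 383 CPM with tunicamycin (log2 fold change 0.56, SE 0.058, adjusted p = 6.3e-08). HEK293T libraries were at 283, 291 and 279 CPM with DMSO and 699.7, 693 and 679 CPM with tunicamycin (log2 fold change 1.28, SE 0.058, adjusted p = 7.4e-14), 2.43-fold higher. All tunicamycin libraries lay above their DMSO libraries. SEC61B was at 67.1, 61.4 and 62.9 CPM with DMSO and 96.8, 89.2 and 90.5 CPM with tunicamycin (log2 fold change 0.53, SE 0.097, adjusted p = 2.8e-04) in HEK293T, and its adjusted p in OCI-AML3 was 0.74 at 4 h and 0.22 at 24 h. SEC61B was called in OCI-AML3 at 24 h without tunicamycin replicate 2 (log2 fold change -0.25, adjusted p = 0.044). SEC61G was at 84.2, 85.7 and 86.8 CPM with DMSO and 133, 130.4 and 139 CPM with tunicamycin (log2 fold change 0.65, SE 0.10, adjusted p = 5.1e-05) in HEK293T and at 48.3, 54.7 and 60.1 CPM with DMSO and 37.7, 53.2 and 38.6 CPM with tunicamycin (log2 fold change -0.33, SE 0.11, adjusted p = 0.014) in OCI-AML3 at 24 h, where the libraries overlapped. That fall lost its call without DMSO replicate 2 or 3 or tunicamycin replicate 1 or 3 in turn (log2 fold changes from -0.29 to -0.20, adjusted p from 0.064 to 0.15).

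SEC62 and SEC63, partners of the channel that serve chains imported after translation, rose in all 3 comparisons. SEC63 was at 121, 122 and 123 CPM with DMSO and 257, 256 and 266 CPM with tunicamycin (log2 fold change 1.09, SE 0.085, adjusted p = 1.2e-09) in HEK293T, without overlap. In OCI-AML3 it was at 116, 141 and 149.8 CPM with DMSO and 184, 182 and 193 CPM with tunicamycin (log2 fold change 0.46, SE 0.085, adjusted p = 1.6e-04) at 4 h. SEC63 at 24 h was at 109, 101 and 101 CPM with DMSO and 167, 165 and 201 CPM with tunicamycin (log2 fold change 0.78, SE 0.086, adjusted p = 1.5e-07). SEC62 rose by 0.29, 0.57 and 0.34 on the log2 scale, and its largest adjusted p of the 3 was 0.0062, at 4 h, where the value was 0.19 (adjusted p = 0.058) with trends in GC content and length removed.

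In the TRAP complex, which sits beside SEC61 and aids the entry of some signal sequences, all 4 subunits rose in HEK293T, against 2 at 4 h and 3 at 24 h in OCI-AML3. Over all genes 12.6% rose in HEK293T, and 18.5% and 23.5% at 4 h and 24 h in OCI-AML3. SSR1 and SSR3 rose throughout. SSR3 was at 185, 176 and 186 CPM with DMSO and 474, 453 and 486 CPM with tunicamycin (log2 fold change 1.37, SE 0.077, adjusted p = 3.7e-12) in HEK293T, the largest change of the complex. In OCI-AML3 it was at 98.5, 80.7 and 86.1 CPM with DMSO and 143, 147 and 148 CPM with tunicamycin (log2 fold change 0.72, SE 0.079, adjusted p = 1.5e-07) at 4 h. SSR3 at 24 h was at 67.9, 66.7 and 77.9 CPM with DMSO and 108, 125 and 131 CPM with tunicamycin (log2 fold change 0.77, SE 0.08, adjusted p = 6.2e-08). The HEK293T groups lay clear of each other. SSR1 was at 123, 119.7 and 126 CPM with DMSO and 283, 277 and 305 CPM with tunicamycin (log2 fold change 1.23, SE 0.064, adjusted p = 8.5e-13) in HEK293T, also without overlap. In OCI-AML3 it was at 108, 102 and 117 CPM with DMSO and 159, 154 and 157 CPM with tunicamycin (log2 fold change 0.52, SE 0.064, adjusted p = 9.1e-07) at 4 h. SSR1 at 24 h was at 100, 92.2 and 97.1 CPM with DMSO and 145, 154 and 161 CPM with tunicamycin (log2 fold change 0.67, SE 0.065, adjusted p = 2.1e-08). SSR2 differed between the lines. It was at 143, 136 and 143 CPM with DMSO and 266, 265 and 282 CPM with tunicamycin (log2 fold change 0.95, SE 0.083, adjusted p = 8.2e-09) in HEK293T, with no overlap, while in OCI-AML3 at 24 h it was at 381, 396 and 385 CPM with DMSO and 363, 386 and 321 CPM with tunicamycin (adjusted p = 0.23), with overlap. SSR4 rose in HEK293T (0.97, adjusted p = 2.2e-05) and in OCI-AML3 at 24 h (0.39, adjusted p = 0.029), where its libraries overlapped and the call was lost without DMSO replicate 1 or tunicamycin replicate 1 or 2 in turn (log2 fold changes from 0.25 to 0.39, adjusted p from 0.05 to 0.14), the lowest of these p being above 0.05 before rounding. That call was also lost with the compared groups only (0.41, adjusted p = 0.058) and with the replicate block (0.38, adjusted p = 0.11).

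Over all genes 4.05% rose beyond 1 in OCI-AML3 at 24 h. Of the 5 signal peptidase genes 3 did, and none did in the other comparisons. SEC11C, 1 of its 2 alternative catalytic subunits, was at 16.4, 12.7 and 18.9 CPM with DMSO and 55, 66.7 and 50.2 CPM with tunicamycin (log2 fold change 1.85, SE 0.13, adjusted p = 1.0e-10), a 3.6-fold rise. SPCS3, which stabilises the enzyme, was at 92.5, 98.5 and 98.3 CPM with DMSO and 236, 257 and 291 CPM with tunicamycin (log2 fold change 1.44, SE 0.072, adjusted p = 3.1e-13). SPCS2, an accessory subunit, was at 109, 107 and 124 CPM with DMSO and 242, 263 and 230.1 CPM with tunicamycin (log2 fold change 1.11, SE 0.071, adjusted p = 2.2e-11). In none of these did the 2 groups overlap. The same genes had smaller values at 4 h and in HEK293T. SEC11C was at 28.6, 21.9 and 21.2 CPM with DMSO and 43, 46.2 and 43.3 CPM with tunicamycin (log2 fold change 0.89, SE 0.12, adjusted p = 4.8e-06) at 4 h. SEC11C in HEK293T was at 40.7, 40.9 and 43.9 CPM with DMSO and 80.5, 79.1 and 83.2 CPM with tunicamycin (log2 fold change 0.95, SE 0.12, adjusted p = 1.5e-06). Its tunicamycin libraries lay above DMSO both times. SPCS3 was at 142, 147 and 152 CPM with DMSO and 188, 194 and 205 CPM with tunicamycin (log2 fold change 0.42, SE 0.07, adjusted p = 6.1e-05) at 4 h. SPCS3 in HEK293T was at 149.6, 144 and 155 CPM with DMSO and 236, 241 and 250.1 CPM with tunicamycin (log2 fold change 0.70, SE 0.07, adjusted p = 8.7e-08). SPCS3 likewise had no overlap. SPCS2 was at 139, 119 and 120.1 CPM with DMSO and 176, 174 and 174 CPM with tunicamycin (log2 fold change 0.47, SE 0.07, adjusted p = 1.2e-05) at 4 h. SPCS2 in HEK293T was at 101, 105 and 102 CPM with DMSO and 189, 201 and 199 CPM with tunicamycin (log2 fold change 0.93, SE 0.07, adjusted p = 7.6e-10). The SPCS2 groups lay apart as well. SEC11A, the other catalytic subunit, rose by 0.35 (adjusted p = 0.0011) in OCI-AML3 at 24 h and by 0.31 (adjusted p = 0.0074) in HEK293T. SPCS1, another accessory subunit, fell in OCI-AML3 at 24 h, from 78.8, 72.5 and 88.6 to 68.2, 73.9 and 66.1 CPM (log2 fold change -0.21, SE 0.082, adjusted p = 0.042), with overlap. That call was lost without DMSO replicate 1 or 3 or tunicamycin replicate 1, 2 or 3 in turn (log2 fold changes from -0.20 to -0.08, adjusted p from 0.077 to 0.48), and also with other scalings, filters and models.

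The signal recognition particle did not move as a block. In the order OCI-AML3 at 4 h, at 24 h and HEK293T, 3, 0 and 3 of its 6 genes were called higher and 1, 2 and 0 lower. Over all genes 18.5%, 23.5% and 12.6% were called higher and 18.9%, 27.7% and 13.1% lower. The shares lower in OCI-AML3, 16.7% and 33.3%, were near those of all genes. SRP14, which with SRP9 binds the Alu domain of the particle's RNA, was the 1 gene of the 52 that fell in 2 comparisons. It was at 319, 246 and 240.5 CPM with DMSO and 223, 221 and 229 CPM with tunicamycin (log2 fold change -0.26, SE 0.094, adjusted p = 0.035) in OCI-AML3 at 4 h. SRP14 at 24 h was at 254, 263 and 309 CPM with DMSO and 222, 246 and 191 CPM with tunicamycin (log2 fold change -0.32, SE 0.094, adjusted p = 0.0064). The tunicamycin libraries lay below the DMSO libraries both times, and in HEK293T as well, at 187, 185 and 186 CPM with DMSO and 163, 162 and 165 CPM with tunicamycin (adjusted p = 0.15; -0.17, adjusted p = 0.0013, with the compared groups only). The 4 h call was lost without DMSO replicate 1 or tunicamycin replicate 1, 2 or 3 in turn (log2 fold changes from -0.27 to -0.10, adjusted p from 0.06 to 0.37) and the 24 h call without DMSO replicate 3 or tunicamycin replicate 3 in turn (log2 fold change -0.19 each time, adjusted p from 0.11 to 0.12). The annotation holds 5 processed copies named after SRP14, among which reads may be split. SRP9 was at 254, 237 and 266 CPM with DMSO and 212, 221 and 234 CPM with tunicamycin at 4 h (adjusted p = 0.097), at 226, 236 and 227 CPM with DMSO and 191, 223 and 229 CPM with tunicamycin at 24 h (adjusted p = 0.36), and at 620.0, 589 and 659 CPM with DMSO and 517, 543 and 603 CPM with tunicamycin in HEK293T (adjusted p = 0.16). With trends in GC content and length removed SRP9 was called lower in all 3 comparisons, at 4 h (-0.34, adjusted p = 2.0e-06), at 24 h (-0.28, adjusted p = 2.2e-05) and in HEK293T (-0.28, adjusted p = 2.6e-05), and in HEK293T also with the compared groups only (-0.15, adjusted p = 0.0078).

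SRP19, which prepares the particle's RNA for SRP54, rose by 0.61 in OCI-AML3 at 4 h and 0.50 in HEK293T (adjusted p = 9.1e-05 and 7.1e-04), and was not called at 24 h in OCI-AML3 (adjusted p = 0.38). SRP68 turned with time. It was at 243, 233 and 244 CPM with DMSO and 317, 294 and 307 CPM with tunicamycin (log2 fold change 0.35, SE 0.056, adjusted p = 3.1e-05) at 4 h. SRP68 at 24 h was at 261, 254 and 240.2 CPM with DMSO and 220.1, 198 and 198 CPM with tunicamycin (log2 fold change -0.29, SE 0.057, adjusted p = 1.8e-04). In HEK293T SRP68 was called higher, at 203, 196 and 199 CPM with DMSO and 231, 241 and 228 CPM with tunicamycin. That call was lost with all genes of at least 1 count tested (0.21, adjusted p = 0.087). SRP72, its partner, rose by 0.30 at 4 h and 0.32 in HEK293T. In OCI-AML3 at 24 h SRP72 was at -0.05 and not called. It was called lower there with GC and length trends removed (-0.28, adjusted p = 3.6e-04). SRP54, the GTPase that holds the signal sequence, was called in no comparison, with adjusted p from 0.63 to 0.98. Of the receptor, SRPRB, the membrane anchor, rose in all comparisons and most in HEK293T, at 108, 99.7 and 104 CPM with DMSO and 203, 207 and 208 CPM with tunicamycin (log2 fold change 0.99, SE 0.082, adjusted p = 4.0e-09). SRPRA, the GTPase subunit, rose by 0.44 in HEK293T (adjusted p = 1.9e-05) and by 0.17 in OCI-AML3 at 4 h (adjusted p = 0.035), a call that was lost without DMSO replicate 2 or 3 or tunicamycin replicate 1 or 3 in turn (log2 fold changes from 0.15 to 0.17, adjusted p from 0.083 to 0.13).

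Close relatives in the COPII coat had unlike values. Of the 4 SEC24 proteins, which pick cargo for the vesicle, SEC24D had the largest rise in HEK293T and in OCI-AML3 at 4 h. SEC24D (chr4:118722823-118838683) was at 100.3, 109 and 113 CPM with DMSO and 255, 233 and 241 CPM with tunicamycin (log2 fold change 1.18, SE 0.065, adjusted p = 1.6e-12) at 4 h. At 24 h it was at 103, 98.8 and 92.8 CPM with DMSO and 123, 127 and 133 CPM with tunicamycin (log2 fold change 0.38, SE 0.066, adjusted p = 5.5e-05). In HEK293T libraries it was at 24.9, 28.4 and 26.1 CPM with DMSO and 97, 98.5 and 95.3 CPM with tunicamycin (log2 fold change 1.87, SE 0.07, adjusted p = 2.2e-15), a 3.66-fold rise and the largest of the 52 in that line. No DMSO library of SEC24D reached a tunicamycin library of the same comparison. SEC24C was at 149, 172 and 166 CPM with DMSO and 209, 197 and 198 CPM with tunicamycin in OCI-AML3 at 4 h (0.31, adjusted p = 0.0019), at 166, 164 and 137 CPM with DMSO and 191, 188 and 179 CPM with tunicamycin at 24 h (0.26, adjusted p = 0.0059) and at 135, 139 and 138 CPM with DMSO and 157, 149.7 and 145 CPM with tunicamycin in HEK293T (adjusted p = 0.2; 0.15, adjusted p = 0.01, with the compared groups only). The SEC24C groups did not overlap in any of the 3. SEC24A was called at 24 h in OCI-AML3 only, at 25.4, 23.9 and 20.6 CPM with DMSO and 28.7, 27.5 and 32.8 CPM with tunicamycin (log2 fold change 0.35, SE 0.10, adjusted p = 0.0066), and its value was 0.08 (adjusted p = 0.42) with trends in GC content and length removed. With the replicate block SEC24A was at 0.37 there and not called (adjusted p = 0.053). Its other values were 34, 39.6 and 37.7 CPM with DMSO and 39.1, 37 and 35.7 CPM with tunicamycin at 4 h (adjusted p = 0.97) and 41.1, 41.8 and 47.3 CPM with DMSO and 38.2, 41.4 and 45.3 CPM with tunicamycin in HEK293T (adjusted p = 0.68). SEC24B fell at 4 h, at 38.7, 37.2 and 44 CPM with DMSO and 35.2, 31 and 34.9 CPM with tunicamycin (log2 fold change -0.25, SE 0.09, adjusted p = 0.034), and lost that call without DMSO replicate 1 or 3 or tunicamycin replicate 2 in turn (log2 fold changes from -0.26 to -0.17, adjusted p from 0.051 to 0.18). It was at 37.1, 34.3 and 33.8 CPM with DMSO and 30.4, 34.1 and 40.5 CPM with tunicamycin at 24 h (adjusted p = 0.99; -0.16, adjusted p = 0.049, with GC and length trends removed) and at 47.8, 46.7 and 50.2 CPM with DMSO and 41.5, 44.9 and 44.7 CPM with tunicamycin in HEK293T (adjusted p = 0.25).

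SEC23B, which pairs with SEC24 in the inner coat, rose in all 3 comparisons. It was at 273, 255 and 266 CPM with DMSO and 336, 336 and 319 CPM with tunicamycin (log2 fold change 0.32, SE 0.051, adjusted p = 3.2e-05) in OCI-AML3 at 4 h. SEC23B at 24 h was at 315, 306 and 296 CPM with DMSO and 438, 449 and 418 CPM with tunicamycin (log2 fold change 0.51, SE 0.051, adjusted p = 4.2e-08). SEC23B in HEK293T was at 89.5, 85.5 and 88.4 CPM with DMSO and 127, 127 and 128 CPM with tunicamycin (log2 fold change 0.53, SE 0.053, adjusted p = 6.7e-08). Its paralog SEC23A was called in none. It was at 56.3, 65.4 and 67.1 CPM with DMSO and 73.2, 63.4 and 65.6 CPM with tunicamycin in OCI-AML3 at 4 h. SEC23A at 24 h was at 55, 54.7 and 53.3 CPM with DMSO and 56.4, 52.9 and 64.7 CPM with tunicamycin. SEC23A in HEK293T was at 131, 125 and 135 CPM with DMSO and 131, 135 and 139 CPM with tunicamycin. Its adjusted p were 0.35, 0.32 and 0.7 in that order. SEC23A was called in OCI-AML3 at 24 h without tunicamycin replicate 2 (log2 fold change 0.21, adjusted p = 0.041). SAR1A and SAR1B, the GTPases that start coat assembly, were called in none either. SAR1A was at 106, 103 and 107 CPM with DMSO and 111, 105 and 102 CPM with tunicamycin in OCI-AML3 at 4 h. SAR1A at 24 h was at 88.7, 81.4 and 96.8 CPM with DMSO and 82.6, 87.8 and 99.8 CPM with tunicamycin. SAR1A in HEK293T was at 128, 129 and 131 CPM with DMSO and 107, 115 and 119.6 CPM with tunicamycin. The tunicamycin libraries of SAR1A lay below DMSO in HEK293T, where its adjusted p was 0.083. SAR1B was at 35.2, 34.6 and 41 CPM with DMSO and 35.8, 35.6 and 37.4 CPM with tunicamycin, at 26.5, 29.1 and 28.6 CPM with DMSO and 28.8, 33.7 and 30.2 CPM with tunicamycin and at 60.1, 58.9 and 61.3 CPM with DMSO and 58.5, 60.1 and 60.8 CPM with tunicamycin in the same order. Their lowest adjusted p were 0.083 for SAR1A and 0.14 for SAR1B. SAR1B was called in OCI-AML3 at 24 h without tunicamycin replicate 1 (log2 fold change 0.23, adjusted p = 0.022) and with library sizes only (0.22, adjusted p = 0.025).

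SEC13 and SEC31A form the outer cage of COPII. SEC13, also a nuclear pore protein, turned between the times in OCI-AML3. It was at 113, 105 and 99.4 CPM with DMSO and 123, 124 and 119 CPM with tunicamycin (log2 fold change 0.21, SE 0.057, adjusted p = 0.0056) at 4 h. At 24 h it was at 89.1, 92.9 and 93.9 CPM with DMSO and 58.7, 62.6 and 60.2 CPM with tunicamycin (log2 fold change -0.60, SE 0.058, adjusted p = 2.0e-08). Its HEK293T libraries were at 109, 103 and 103 CPM with DMSO and 139.5, 143 and 139 CPM with tunicamycin (log2 fold change 0.42, SE 0.056, adjusted p = 5.6e-06). Groups did not overlap in any of the 3, and the direction of the 24 h comparison in OCI-AML3 was opposite to the others. The 4 h call was lost when all genes with at least 1 count were tested (0.17, adjusted p = 0.21). SEC31A rose at 4 h (0.45, adjusted p = 3.6e-05) and in HEK293T (0.42, adjusted p = 1.6e-04), and was not called in OCI-AML3 at 24 h (adjusted p = 1).

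Most cargo receptors were called higher in each of the 3 comparisons, 6 of 8 at each time in OCI-AML3 and 7 of 8 in HEK293T. Over all genes 18.5%, 23.5% and 12.6% were, in the order OCI-AML3 at 4 h, at 24 h and HEK293T. TMED7 (chr5:115613210-115632992), a p24 protein that cycles between ER and Golgi, was past both thresholds in all 3. It was at 50.0, 59.9 and 66.5 CPM with DMSO and 133, 134 and 144 CPM with tunicamycin (log2 fold change 1.22, SE 0.11, adjusted p = 4.9e-09) in OCI-AML3 at 4 h. At 24 h it was at 48.8, 45.5 and 41.5 CPM with DMSO and 105, 106 and 134 CPM with tunicamycin (log2 fold change 1.35, SE 0.11, adjusted p = 1.3e-09). The HEK293T libraries held 68.2, 63.1 and 69 CPM with DMSO and 146, 142 and 158 CPM with tunicamycin (log2 fold change 1.16, SE 0.11, adjusted p = 1.7e-08). No DMSO library reached a tunicamycin library. TMED7 shares exons with the readthrough gene TMED7-TICAM2, which was at 6.91, 7.49 and 8.18 CPM with DMSO and 21.5, 17 and 17.1 CPM with tunicamycin in OCI-AML3 at 4 h, so that the split of reads between them is uncertain. TMED10, a p24 protein that recruits COPI, was at 222, 221 and 226 CPM with DMSO and 461, 471 and 492 CPM with tunicamycin (log2 fold change 1.09, SE 0.059, adjusted p = 2.1e-12) in HEK293T, without overlap. In OCI-AML3 it was at 249.6, 223 and 244 CPM with DMSO and 372, 352 and 356 CPM with tunicamycin (log2 fold change 0.59, SE 0.059, adjusted p = 4.5e-08) at 4 h. TMED10 at 24 h was at 201, 199.9 and 225 CPM with DMSO and 379, 409 and 398 CPM with tunicamycin (log2 fold change 0.92, SE 0.06, adjusted p = 2.7e-11). TMED2, its partner, rose by 0.90, 0.93 and 0.89. TMED9 rose by 0.40 at 4 h and 0.81 in HEK293T, and TMED3 was called in none. TMED9 was called in OCI-AML3 at 24 h without tunicamycin replicate 3 (log2 fold change 0.28, adjusted p = 0.022).

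LMAN1 and MCFD2 together form the receptor for coagulation factors. MCFD2 rose by 0.56, 0.75 and 0.70 in the order OCI-AML3 at 4 h, at 24 h and HEK293T. LMAN1 rose by 0.74 at 24 h in OCI-AML3 and 0.48 in HEK293T. At 4 h its tunicamycin libraries lay above DMSO, at 107, 135 and 142 CPM with DMSO and 149, 143 and 169 CPM with tunicamycin, and its adjusted p was 0.058. LMAN1 was called in OCI-AML3 at 4 h without DMSO replicate 3 (log2 fold change 0.35, adjusted p = 0.026). It was also called higher there with the replicate block (0.28, adjusted p = 0.026). Testing all genes of at least 1 count (0.23, adjusted p = 0.043) or removing GC and length trends (0.17, adjusted p = 0.0059) called it higher too. LMAN2, a lectin for high-mannose glycans, rose in all 3, by 0.42, 0.33 and 0.46.

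The 3 KDEL receptors, which return ER chaperones from the Golgi, differed in when they were called. KDELR2 rose each time, at 112, 101 and 99.2 CPM with DMSO and 148, 146 and 139 CPM with tunicamycin in OCI-AML3 at 4 h (0.47, adjusted p = 8.7e-06), 97, 84.9 and 86.7 CPM with DMSO and 132, 128 and 113 CPM with tunicamycin at 24 h (0.47, adjusted p = 7.6e-06) and 173, 169.7 and 179.6 CPM with DMSO and 254, 266 and 273 CPM with tunicamycin in HEK293T (0.60, adjusted p = 3.7e-07). KDELR3, the lowest of them, was at 5.24, 4.66 and 4.47 CPM with DMSO and 7.38, 8.71 and 7.29 CPM with tunicamycin (log2 fold change 0.70, SE 0.18, adjusted p = 0.0022) in OCI-AML3 at 24 h and at 12.1, 12.9 and 11.5 CPM with DMSO and 16.4, 17.5 and 19.2 CPM with tunicamycin (log2 fold change 0.54, SE 0.14, adjusted p = 0.0075) in HEK293T. At 4 h it was at 4.65, 2.56 and 4.46 CPM with DMSO and 4.16, 6.1 and 4.21 CPM with tunicamycin, with overlap (adjusted p = 0.19). KDELR1 rose in HEK293T, at 148, 144 and 148 CPM with DMSO and 190.0, 197 and 189 CPM with tunicamycin (log2 fold change 0.39, SE 0.071, adjusted p = 2.5e-04). In OCI-AML3 at 24 h it was at 124, 117 and 112 CPM with DMSO and 148, 129 and 119 CPM with tunicamycin (adjusted p = 0.057), and at 4 h at 86.6, 88.2 and 90.0 CPM with DMSO and 97.1, 90.7 and 89.9 CPM with tunicamycin (adjusted p = 0.5). KDELR1 was called in OCI-AML3 at 24 h without DMSO replicate 1 or tunicamycin replicate 2 or 3 in turn (log2 fold changes from 0.24 to 0.28, adjusted p from 0.0048 to 0.02). It was also called there by DESeq2 (0.20, adjusted p = 0.019), with DESeq2 size factors in edgeR (0.20, adjusted p = 0.027), with library sizes only (0.25, adjusted p = 0.005), with a filter of 1 CPM in 3 libraries (0.21, adjusted p = 0.029) and with GC and length trends removed (0.36, adjusted p = 2.4e-04), so that 8 of 15 alternatives called it higher.

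The COPI coat rose early in OCI-AML3, with 5 of 6 subunits called higher at 4 h, where 18.5% of all genes were. At 24 h 2 were higher and 2 lower, 33.3% each, near the 23.5% and 27.7% of all genes. In HEK293T 4 rose, against 12.6% of all genes. COPG1, the gamma subunit, was at 149, 142 and 148 CPM with DMSO and 234, 217 and 215 CPM with tunicamycin (log2 fold change 0.60, SE 0.073, adjusted p = 7.6e-07) in OCI-AML3 at 4 h. At 24 h it was at 164, 152 and 131 CPM with DMSO and 156, 140.1 and 133 CPM with tunicamycin, with overlap (adjusted p = 0.49). In HEK293T libraries its level was 91.5, 94.7 and 87.9 CPM with DMSO and 164, 162 and 170.1 CPM with tunicamycin (log2 fold change 0.85, SE 0.074, adjusted p = 7.0e-09). COPA, the alpha subunit, rose by 0.63, 0.16 and 0.49. Its OCI-AML3 value at 24 h was 0.09 (adjusted p = 0.077) with GC and length trends removed. That call was also lost with the replicate block (0.185, adjusted p = 0.16) and the compared groups only (0.185, adjusted p = 0.12). It was lost too with all genes of at least 1 count tested (0.14, adjusted p = 0.24). COPE, the epsilon subunit, fell in OCI-AML3 at 24 h, at 232, 251 and 261 CPM with DMSO and 201, 217 and 145 CPM with tunicamycin (log2 fold change -0.40, SE 0.11, adjusted p = 0.0043), and rose in HEK293T, at 129, 134 and 118 CPM with DMSO and 196, 188 and 185 CPM with tunicamycin (log2 fold change 0.58, SE 0.11, adjusted p = 4.8e-04). That fall lost its call without tunicamycin replicate 3 (log2 fold change -0.21, adjusted p = 0.089) and was -0.09 (adjusted p = 0.16) with GC and length trends removed. COPB2 rose at 4 h (0.19, adjusted p = 0.0081) and fell at 24 h (-0.17, adjusted p = 0.012). COPE was called in OCI-AML3 at 4 h without DMSO replicate 1 (log2 fold change 0.31, adjusted p = 0.033). The COPB2 rise at 4 h was not called with all genes of at least 1 count tested (0.15, adjusted p = 0.27) or with GC and length trends removed (0.13, adjusted p = 0.052). The COPB2 fall lost its call when any 1 of the 6 libraries compared was left out (log2 fold changes from -0.15 to -0.10, adjusted p from 0.053 to 0.19). COPB1 rose in all comparisons, by 0.43, 0.23 and 0.20, but the calls at 24 h depended on the processing. In OCI-AML3 at 24 h the value was 0.04 (adjusted p = 0.49) with GC and length trends removed and 0.21 (adjusted p = 0.061) with all genes of at least 1 count tested. The HEK293T call was lost without DMSO replicate 1 or 2 or tunicamycin replicate 1 or 3 in turn (log2 fold changes from 0.18 to 0.20, adjusted p from 0.055 to 0.088). ARCN1, the delta subunit, rose at 4 h (0.33, adjusted p = 5.0e-05) and in neither 24 h comparison.

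The groups that received no tunicamycin show how far these genes moved by themselves. DMSO for 4 h against untreated OCI-AML3 cells gave 0 calls by edgeR among the 52 and among all 14012 genes, with 6 of the 52 and 1160 of all genes at an unadjusted p under 0.05. Between DMSO at 4 h and DMSO at 24 h, 6 of the 52 rose and 24 fell, against 21% and 21.6% of all genes, and their median was -0.16. SEC24A (-0.67), SPCS3 (-0.61) and SEC11C (-0.59) fell most and KDELR1 (0.41) rose most. SPCS3 was at 147 ± 5.25 CPM at 4 h and 96.4 ± 3.39 CPM at 24 h with DMSO, and at 196 ± 8.45 and 261 ± 27.8 CPM with tunicamycin (SD, n = 3). SEC11C was at 23.9 ± 4.12 and 16 ± 3.12 CPM with DMSO, and at 44.2 ± 1.75 and 57.3 ± 8.5 CPM with tunicamycin. For both genes the lower control at 24 h and the higher treated level each widened the 24 h difference.

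The response differed between 4 h and 24 h in OCI-AML3 for 20 of the 52 genes, by a test of the difference itself: it was larger at 24 h for 9 and smaller for 11. Leaving out 1 library gave 6 (without DMSO replicate 3 at 4 h) to 13 (without tunicamycin replicate 1 at 24 h) larger and 10 to 12 smaller, and the other alternatives 6 to 12 and 10 to 12. The shares in the fit of all libraries, 17.3% and 21.2%, were near the 15.1% and 20.3% of all genes. The rises of TRAM1 (difference of log2 fold changes 1.18, SE 0.095, adjusted p = 5.5e-09), SPCS3 (1.02, adjusted p = 1.1e-07) and SEC11C (0.96, adjusted p = 2.6e-04) were larger at 24 h. SPCS2, SEC11A, LMAN1, TMED10, SEC63 and SEC23B also had larger values at 24 h. The calls of these genes were not checked singly under the alternatives, and SPCS2 and SEC11A count in the signal peptidase share below. The values of SEC13 (-0.81, adjusted p = 1.5e-07), SEC24D (-0.80, adjusted p = 1.1e-06) and COPG1 (-0.66, adjusted p = 4.1e-05) were smaller at 24 h. By role, 4 of the 5 signal peptidase genes had a larger value at 24 h, whereas 5 of the 6 COPI genes and 3 of the 6 genes of the signal recognition particle had a smaller one. Across the 52 genes the difference between the times fell with the GC content of the transcript (Spearman's rho -0.48 across genes, against -0.17 over 13971 genes). With GC and length trends removed 9 genes were larger at 24 h and 12 smaller.

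The 24 h response also differed between the lines. It was larger in HEK293T for 21 genes and smaller for 4, against 15.9% and 10.9% of all genes. The largest differences were those of SEC24D (1.49, SE 0.095, adjusted p = 3.6e-10), SSR2 (1.07, adjusted p = 6.0e-07), SEC13 (1.03, adjusted p = 6.1e-09), SEC61G (0.98, adjusted p = 4.8e-05), COPE (0.98, adjusted p = 8.6e-05) and COPG1 (0.92, adjusted p = 1.0e-06). All 4 TRAP genes, both receptor subunits and 4 of 6 COPI genes were on this side. Differences the other way were named after their values were seen: SEC11C (-0.90, adjusted p = 5.7e-04), SPCS3 (-0.74, adjusted p = 1.0e-05) and TRAM1 (-0.56, adjusted p = 1.3e-04), and SEC24A was the other gene. Across the 52 genes the difference between the lines rose with the GC content of the transcript (Spearman's rho 0.53 across genes, which share the libraries and are not independent, against 0.21 over 13971 genes). With GC and length trends removed 24 genes were larger in HEK293T and 3 smaller.

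**Figure D4:**
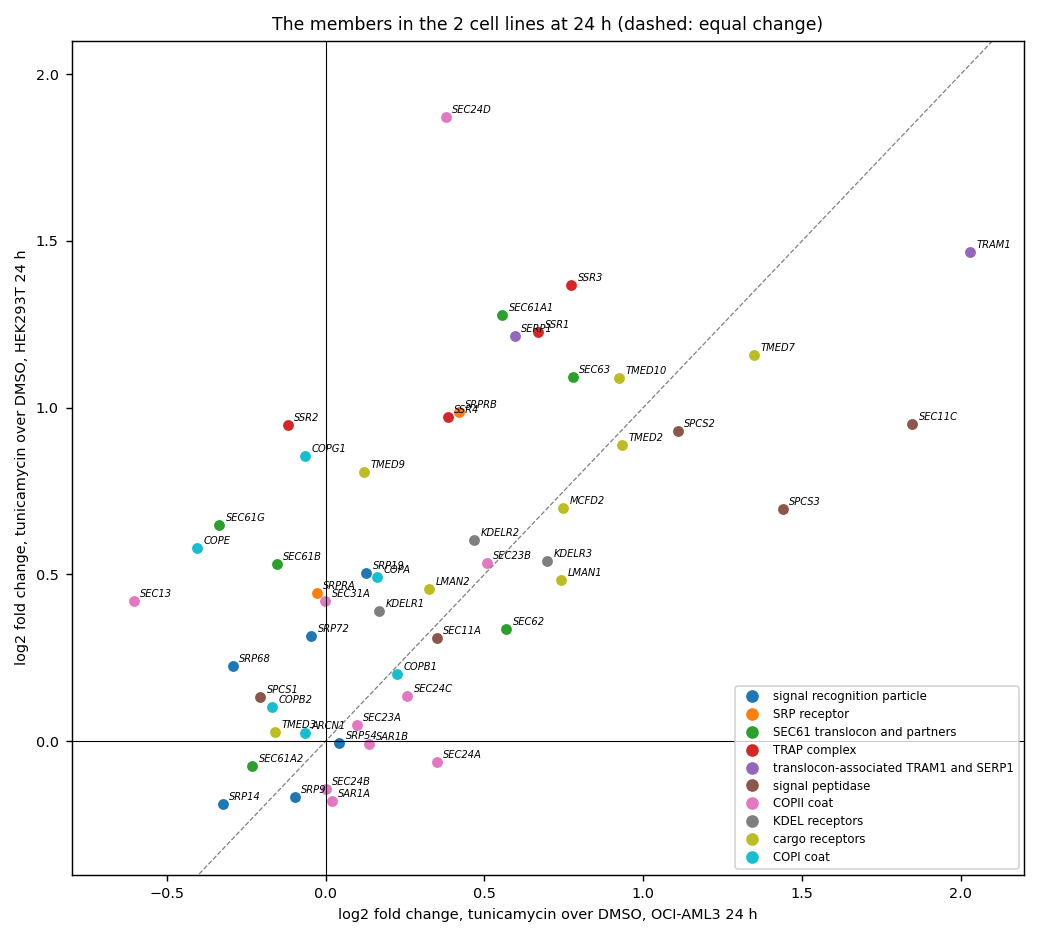
Log2 fold change of each of the 52 genes with tunicamycin at 24 h, OCI-AML3 on the horizontal and HEK293T on the vertical axis, coloured by role. SEC24D, SSR2, SEC13, SEC61G, COPE and COPG1 lie farthest above the dashed line of equal change, and SEC11C, SPCS3 and TRAM1 below it.

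The lines also started from different levels. With DMSO at 24 h, 30 of the 52 genes were higher and 15 lower in HEK293T than in OCI-AML3, where 40.5% and 42.2% of all genes were. SEC61A2 (2.65), SRP19 (1.53) and SRP9 (1.44) were farthest above, and SEC24D (-1.89), SEC23B (-1.80) and SSR2 (-1.46) farthest below, all as log2 differences. Of the 6 genes whose response was farthest above in HEK293T, SEC24D, SSR2, COPE and COPG1 had a lower level there with DMSO, and SEC61G and SEC13 a higher one (0.66 and 0.19). SEC24D was at 96.9 ± 1.61 CPM with tunicamycin in HEK293T and at 98.3 ± 5.29 CPM in OCI-AML3 with DMSO (SD, n = 3).

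Per kilobase of transcript, where levels of different genes can be compared, the highest of the 52 in OCI-AML3 cells with DMSO at 24 h was SSR2, at 349.7 ± 7.13 CPM per kb (SD, n = 3), followed by SSR4 at 275 ± 34.6 and SRP14 at 246 ± 26.7. In HEK293T it was SRP9, at 420.4 ± 23.8, followed by SSR4 at 225 ± 16 and SEC61G at 201 ± 3.06. The lowest were SEC61A2 in OCI-AML3, at 1.69 ± 0.27, and SEC24D in HEK293T, at 6.6 ± 0.442, within the spread of SEC24A at 6.79 ± 0.532.

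Paralogs kept their order of level in most families. SEC61A1 stood far above SEC61A2, at 77.6 ± 4.21 and 1.69 ± 0.27 CPM per kb in OCI-AML3 with DMSO at 24 h and at 79.7 ± 1.63 and 10.6 ± 0.701 in HEK293T. SEC61A2 was at 4.92, 4.61 and 5.27 CPM with DMSO and 4.48, 5.4 and 5.74 CPM with tunicamycin in OCI-AML3 at 4 h. SEC61A2 at 24 h was at 4.09, 3.6 and 4.93 CPM with DMSO and 3.3, 3.2 and 4.08 CPM with tunicamycin. SEC61A2 in HEK293T was at 25.3, 25.4 and 28.4 CPM with DMSO and 24, 25.1 and 26.2 CPM with tunicamycin. It was called in no tunicamycin comparison. SEC11C was below SEC11A in every group, and came nearest with tunicamycin in HEK293T, at 102 ± 2.68 against 142 ± 3.56 CPM per kb. SEC11A itself was at 182, 144 and 153 CPM with DMSO and 149.8, 162 and 159 CPM with tunicamycin in OCI-AML3 at 4 h (adjusted p = 0.85). SEC11A at 24 h was at 178, 169.9 and 206 CPM with DMSO and 222, 257 and 226 CPM with tunicamycin. SEC11A in HEK293T was at 121, 127 and 125 CPM with DMSO and 152, 150.4 and 158 CPM with tunicamycin. The order of SEC23 differed between the lines with DMSO but not with tunicamycin: SEC23B was at 101 ± 3.13 and SEC23A at 14.1 ± 0.238 CPM per kb in OCI-AML3 with DMSO at 24 h, and at 29 ± 0.693 and 34 ± 1.35 in HEK293T. With tunicamycin in HEK293T SEC23B was above SEC23A, at 42 ± 0.212 and 35.1 ± 0.94, the order seen in OCI-AML3. SEC24D was below SEC24C in OCI-AML3 with DMSO at 4 h, at 26.7 ± 1.61 and 36.5 ± 2.72, and above it with tunicamycin, at 60.5 ± 2.81 and 45.2 ± 1.5. KDELR1 led KDELR2 and KDELR3 in each of the 7 groups. SAR1A was above SAR1B throughout, at 15.1 ± 1.3 and 4.31 ± 0.217 in OCI-AML3 with DMSO at 24 h.

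**Figure D5:**
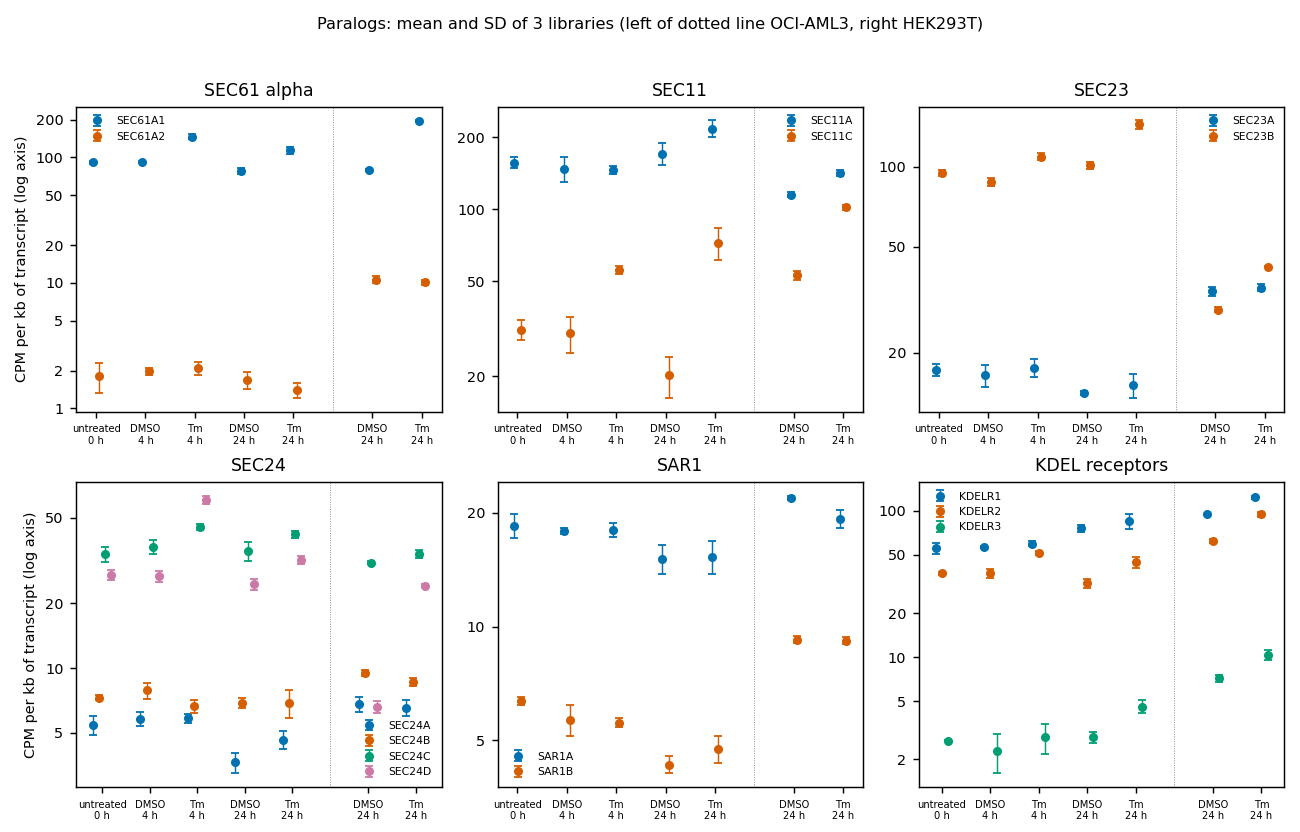
CPM per kb of transcript of 6 paralog families in the 7 groups, as mean and SD of 3 libraries on a log axis, OCI-AML3 left and HEK293T right of the dotted line. SEC24D overtakes SEC24C with tunicamycin at 4 h in OCI-AML3, SEC23A and SEC23B lie close in HEK293T alone, and KDELR3 is the lowest KDEL receptor in every group.

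Further genes of the same route were listed from general knowledge, and their counts are given in the order OCI-AML3 at 4 h, at 24 h and HEK293T. Over all genes, in that order, 18.5%, 23.5% and 12.6% were called higher and 18.9%, 27.7% and 13.1% lower. Of 25 tethers and SNAREs, which let vesicles dock and fuse, the calls were 16 higher and 2 lower, 8 higher and 7 lower, 11 higher and 4 lower, and the 32% higher and 28% lower at 24 h in OCI-AML3 were near those shares. STX5, the Golgi SNARE, changed by 1.28 at 4 h and 0.87 in HEK293T, BET1 by 0.83 and 0.82, and the tether USO1 by 0.87 in OCI-AML3 at 24 h, while RAB1B and SCFD2 fell there (-0.65 and -0.50). Of 12 other cargo receptors tested of 14, the calls were 4 higher and 1 lower, 3 higher and 1 lower, 5 higher and 0 lower. At 24 h in OCI-AML3 the 25% higher were near the share of all genes, and the 8.33% lower were below it. TMED5 changed by 1.08 in OCI-AML3 at 24 h and SURF4, a receptor for soluble cargo, by 0.91 in HEK293T. Of 7 other COPII and exit site genes tested of 8, the calls were 4 higher and 1 lower, 4 higher and 1 lower, 4 higher and 1 lower. MIA2 and MIA3, which help large cargo leave the ER, rose in all 3, MIA2 by 0.73, 0.68 and 0.72. Of 11 other COPI and ARF genes, the calls were 4 higher and 1 lower, 1 higher and 5 lower, 3 higher and 1 lower, with ARFGAP3 at 1.05 in HEK293T and ARF5 at -0.56 in OCI-AML3 at 24 h. Of 25 other import genes tested of 26, from the EMC, GET and multipass routes among others, the calls were 3 higher and 2 lower, 6 higher and 10 lower, 6 higher and 2 lower. At 24 h in OCI-AML3 the 24% higher were near the share of all genes, and the 40% lower were above it. In HEK293T 24% were higher and 8% lower. The signal peptide peptidase HM13 rose in all 3 (0.46, 0.58 and 0.78), and GET3 (-0.81) and EMC6 (-0.73) fell most at 24 h in OCI-AML3. The medians of these import genes, -0.04, -0.03 and 0.11, were below those of the 52.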

How the data were processed

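Polyadenylated RNA of the 21 libraries was sequenced for the authors. Reads were aligned to GRCh38 with STAR and quantified per gene with RSEM, as named in the submitters' processing notes and the study's methods. The deposited table gives expected counts from RSEM without scaling or filter for 60671 genes. Values that are not whole made up 3.54 to 4.22% per library. Whether counting used the strand is not given in the sources used here; 8 of the 52 genes share exon sequence with a gene of the same strand and 31 with one of the other strand, and 15 have processed copies named after them. Each column matched 1 sample by its name, and 0 pairs of replicates were identical.

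Expected counts were rounded. The 14012 genes that reached 1 CPM in 8 or more of the 21 libraries were fitted with edgeR 4.0.16 (R 4.3.3), with TMM scaling, a mean for each of 7 groups and the quasi-likelihood test. P-values were adjusted over all of them by Benjamini-Hochberg. Each standard error was recovered from the test, as the size of the log2 fold change over the root of its F statistic. Thresholds were an adjusted p of 0.05 and, where stated, a log2 fold change of 1. Levels per kb use the canonical transcript of GENCODE release 44. Alternatives used limma 3.58.1 (voom, as in the study's methods), DESeq2 1.42.0, other scalings and filters, the compared groups alone, a replicate block and each library left out. A correction for GC content and length was added after seeing the data. The model was tested on simulated data, and no result of that test is used here.

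The 52 genes, the further lists and the motifs were chosen with earlier results of these data known. Values in every library compared are given for genes past both thresholds in any tunicamycin comparison and genes falling in at least 2. They are also given for the SEC61A, SEC11, SEC23, SEC24, SAR1 and KDEL receptor paralogs. For each interaction the 6 genes farthest from 0 are given with values, and some other called genes are named as well. TRAM1, SPCS3 and SEC11C in the difference between lines were chosen after values were seen. Of each further list at most 3 genes in each direction are named. Promoter sequences are from RefSeq. Splicing and proteomic data were left out. Plots were made in matplotlib 3.10.9.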

Additional observations from a re-analysis of the deposited data

Results flagged for a closer look

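These values stand out because the response to tunicamycin differed between times or between lines by a test of the difference (interaction terms in edgeR, adjusted over 14012 genes). In OCI-AML3 the 24 h response exceeded the 4 h response for TRAM1 (1.18, adjusted p = 5.5e-09), SPCS3 (1.02, adjusted p = 1.1e-07) and SEC11C (0.96, adjusted p = 2.6e-04). It was below the 4 h response for SEC13 (-0.81, adjusted p = 1.5e-07), SEC24D (-0.80, adjusted p = 1.1e-06) and COPG1 (-0.66, adjusted p = 4.1e-05). At 24 h the response in HEK293T exceeded that in OCI-AML3 for SEC24D (1.49, adjusted p = 3.6e-10), SSR2 (1.07, adjusted p = 6.0e-07), SEC13 (1.03, adjusted p = 6.1e-09), SEC61G (0.98, adjusted p = 4.8e-05), COPE (0.98, adjusted p = 8.6e-05) and COPG1 (0.92, adjusted p = 1.0e-06). It was below that in OCI-AML3 for TRAM1 (-0.56, adjusted p = 1.3e-04), SPCS3 (-0.74, adjusted p = 1.0e-05) and SEC11C (-0.90, adjusted p = 5.7e-04). All values are differences of log2 fold changes. Outlying single libraries were not tested for in groups of 3.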

How the results depend on the processing

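Rises were stable in number. Over the alternatives other than leaving out a library, 30 to 33 of the 52 genes rose in OCI-AML3 at 4 h, 23 to 29 at 24 h and 36 to 41 in HEK293T. Single calls were checked for 121 values: all calls of the 3 tunicamycin comparisons and the interaction values flagged above. The other interaction calls were not checked. None of the 121 changed sign under any alternative run. Of 121 called single values 17 lost their call under at least 1 alternative (SRP14, SRPRA, SEC62, SEC13, SEC24B, COPB2 in OCI-AML3 at 4 h and SRP14, SEC61G, SSR4, SPCS1, SEC24A, COPA, COPB1, COPB2, COPE in OCI-AML3 at 24 h and SRP68, COPB1 in HEK293T), and of 50 values without a call 20 gained one and 29 changed sign. With GC and length trends removed, calls were gained in OCI-AML3 by SSR4, LMAN1 and COPE (higher) and SRP9 (lower) at 4 h, and by KDELR1 and TMED9 (higher) and SRP9, SRP72, SEC24B and ARCN1 (lower) at 24 h. The few falls were less stable, and the cause was not tested. In OCI-AML3 at 4 h, 2 genes fell, but 0 with the compared groups only and 0 with a replicate block, and 3 with GC and length trends removed or with at least 1 count. Leaving out 1 library gave 0 to 2. At 24 h, 7 fell, but 4 with the compared groups only and 3 with the block, and 10 with GC and length trends removed. Leaving out 1 library gave 2 to 6. In HEK293T, 0 fell, but 1 with library sizes only, 3 with the compared groups only, 4 with the block and 4 with GC and length trends removed. Of the responses smaller in HEK293T than in OCI-AML3, 4 in number, library sizes only gave 7.

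Pairing by replicate number was not tested. The deviations of same-numbered DMSO and tunicamycin libraries correlated across genes by 0.0989, 0.0138 and 0.132 in OCI-AML3 at 4 h (other numbers -0.172 to 0.0846). At 24 h in that line they correlated by 0.0149, -0.0786 and -0.139 (other numbers -0.122 to 0.176). In HEK293T they correlated by 0.0439, 0.0578 and 0.119, above the other numbers (-0.0766 to 0.0265). With the replicate block 32, 23 and 41 of the 52 rose. The block added a call for LMAN1 (higher) in OCI-AML3 at 4 h. In HEK293T it added calls for SPCS1, SEC24C and COPB2 (higher) and SRP9, SRP14, SEC24B and SAR1A (lower). The compared groups only added the same HEK293T calls except that of SEC24B. In OCI-AML3 the calls of SRP14, SRPRA and SEC24B at 4 h were lost with the block. At 24 h in that line it lost those of SRP14, SEC61G, SSR4, SPCS1, SEC24A, COPA, COPB1 and COPB2. With 3 libraries a group, standard errors at 4 h were 0.057 for SEC13 and 0.19 for the less abundant KDELR3, which limits the size of change that could be called.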
